A study of Mus musculus with 7 samples.

Results

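The replication-dependent histone genes of the mouse were followed here through chromatin accessibility and TRF2 occupancy in muscle stem cells (MuSCs). Members were the protein-coding genes of GENCODE M21, on build mm10, whose symbols begin with Hist1h, Hist2h, Hist3h or Hist4h, and 67 of 21938 protein-coding genes met this rule. They comprised 54 Hist1 genes on chromosome 13, 10 Hist2 genes on chromosome 3, 2 Hist3 genes on chromosome 11 and the single Hist4 gene, Hist4h4, on chromosome 6. By product they were 6 linker histone H1 genes, 18 H2A, 18 H2B, 12 H3 and 13 H4 genes. A start was scored by the MACS peaks lying within 1 kb of it. Peak height was read as the MACS fold, the pileup of fragments at the peak summit plus 1 divided by the background plus 1. For ATAC a single background value per library gave whole pileups at 100% of peaks, so the ATAC fold is not corrected for local signal. For TRF2 the background was solved peak by peak.

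Accessibility was measured by ATAC-seq in uninjured (0 h) hind limb MuSCs, with 2 Control and 2 TRF2KO libraries. TRF2, the telomere-binding protein encoded by Terf2, was mapped by CUT&Tag in wild-type MuSCs of injured tibialis anterior muscle (labelled 3 days after notexin) with 2 libraries, beside 1 library made with rabbit IgG. The study's methods differ from these labels: they give Pax7-Cre mice with a TdTomato reporter as the control, gastrocnemius as well as tibialis anterior, and an earlier time after injury. According to the study's methods, the knockout joins Pax7-CreER to floxed Terf2 alleles and is induced by tamoxifen, so that deletion is limited to cells that express Pax7. The mice were on a C57BL/6 background. The genotype field of both TRF2KO libraries nevertheless reads Wildtype, and the group was taken from their titles. The study's methods describe MuSCs sorted as CD45-, CD31-, CD11b- and Sca1- cells positive for VCAM or CD34 and for α7-integrin. For the CUT&Tag cells they cite a different protocol. The labels give no age for the mice, and none says that libraries of a genotype came from separate mice, so every p below measures only the spread between these libraries.

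Replication-dependent histone genes supply the core histones H2A, H2B, H3 and H4 and the linker histone H1 that package newly copied DNA, and their transcripts accumulate in S phase. Most lack introns, and their mRNAs end in a conserved stem-loop, bound by SLBP, in place of a poly(A) tail. Many H2A and H2B genes stand head to head and share the DNA between their starts. In uninjured muscle most MuSCs are quiescent and enter the cell cycle after damage.

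The stem-loop was the first sequence examined, because it is a feature of this class of gene that does not rest on its name. Its core was searched as CTTTTNAG on the coding strand within 100 bases past the annotated stop codon farthest from the start. The motif was present in 61 of the 67 genes (91%), against 183 of the other 21871 protein-coding genes (0.837%), at a median of 36 bases past the stop. Genes without a match were Hist2h2be, Hist1h2bp, Hist1h2bq, Hist1h2br, Hist1h3g and Hist1h4a. For Hist1h2bp, Hist1h2bq and Hist1h2br the last coding base used was chr13:21789060, 21808103 and 21835839, against starts at 21787461, 21810197 and 21833743. A stem-loop past any nearer stop was not searched in these genes, so their lack of a match does not show that they lack it. In all, 66 of 67 members (98.5%) had a single-exon transcript, against 20.8% of all protein-coding genes. One example for each histone class, and for the 3 germ-cell members, is given below with the core in capitals, 5′ to 3′ on the coding strand of mm10.
Hist1h1c (H1, chr13:23739509-23739532, + strand): aaaggctCTTTTCAGagccaccac
Hist1h2ag (H2A, chr13:22042478-22042501, - strand): aaaggctCTTTTCAGagccaccta
Hist1h2bj (H2B, chr13:22043635-22043658, + strand): aaaggctCTTTTCAGagccacgca
Hist1h3e (H3, chr13:23561898-23561921, - strand): aacggctCTTTTAAGagccacctc
Hist4h4 (H4, chr6:136803993-136804016, - strand): aaaggccCTTTTCAGggcccacaa
Hist1h1t (H1 of spermatocytes, chr13:23696522-23696545, + strand): aaaggctCTTTTAAGagccactta
Hist1h2ba (testis H2B, chr13:23933725-23933748, - strand): aaaggctCTTTTAAGagccaccca
Hist1h2aa (testis H2A, chr13:23934888-23934911, + strand): aaaggctCTTTTCAGagccacctt

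The DNA between head-to-head H2A and H2B starts carries the promoters of both genes. Among the members, 13 divergent pairs lay within 1 kb of each other, 12 of them an H2A with an H2B gene and the other Hist1h2bh with Hist1h3f. In 11 of the 13, both starts took their ATAC value from the same peak in all 4 libraries, and in the remaining 2 neither start had a peak. Therefore a pair is 1 measurement. The members with a peak in a library, 62 in TRF2KO 1 and 61 in each of the others, rested on only 40 or 41 distinct peaks. The bases between the RefSeq starts of 5 pairs are shown on the + strand of mm10, chosen for their ATAC values after these were seen. The pairs are Hist1h2an/Hist1h2bp and Hist1h2ag/Hist1h2bj with high folds, Hist1h2bq/Hist1h2ao and Hist1h2ap/Hist1h2br without a peak, and the testis pair Hist1h2ba/Hist1h2aa. Capitals mark 3 elements on either strand. CCAAT, the NF-Y box, reads ATTGG on the other strand. The TATA box was taken as TATAAA, and its reverse complement is also in capitals. ATTTGCAT is the octamer bound by Oct-1, and in the printed spacers it appears as its reverse complement.
Hist1h2an/Hist1h2bp (chr13:21787249-21787487): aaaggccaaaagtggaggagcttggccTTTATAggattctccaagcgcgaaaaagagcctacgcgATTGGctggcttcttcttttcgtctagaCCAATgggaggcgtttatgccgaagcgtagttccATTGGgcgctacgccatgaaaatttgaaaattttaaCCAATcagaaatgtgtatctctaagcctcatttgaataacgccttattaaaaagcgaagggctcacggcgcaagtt
Hist1h2ag/Hist1h2bj (chr13:22042950-22043197): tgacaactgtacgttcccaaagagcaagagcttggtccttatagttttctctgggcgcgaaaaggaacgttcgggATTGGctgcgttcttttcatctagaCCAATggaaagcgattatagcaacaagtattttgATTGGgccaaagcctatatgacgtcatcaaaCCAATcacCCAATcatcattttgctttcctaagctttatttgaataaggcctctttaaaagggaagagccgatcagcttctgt
Hist1h2bq/Hist1h2ao (chr13:21810200-21810366): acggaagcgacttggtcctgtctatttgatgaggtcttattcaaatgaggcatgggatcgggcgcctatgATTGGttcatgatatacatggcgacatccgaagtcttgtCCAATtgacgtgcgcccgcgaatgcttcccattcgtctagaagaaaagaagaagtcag
Hist1h2ap/Hist1h2br (chr13:21833476-21833742): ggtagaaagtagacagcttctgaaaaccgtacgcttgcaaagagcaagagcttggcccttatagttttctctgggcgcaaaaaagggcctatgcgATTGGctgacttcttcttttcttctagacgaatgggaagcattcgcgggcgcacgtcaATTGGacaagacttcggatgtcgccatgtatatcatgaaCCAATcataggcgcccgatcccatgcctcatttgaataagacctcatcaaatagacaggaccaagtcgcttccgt
Hist1h2ba/Hist1h2aa (chr13:23934157-23934436): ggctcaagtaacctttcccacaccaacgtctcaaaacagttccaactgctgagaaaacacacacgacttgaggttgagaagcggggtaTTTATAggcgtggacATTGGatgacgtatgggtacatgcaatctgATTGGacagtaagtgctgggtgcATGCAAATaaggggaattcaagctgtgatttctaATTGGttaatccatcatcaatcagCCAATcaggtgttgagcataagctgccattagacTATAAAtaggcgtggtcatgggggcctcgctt

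Every one of these spacers held CCAAT boxes, from 2 copies on either strand in Hist1h2bq/Hist1h2ao to 5 in Hist1h2ag/Hist1h2bj. The Hist1h2bq/Hist1h2ao spacer read on the opposite strand was identical to the Hist1h2ap/Hist1h2br spacer over all 167 bases of the shorter one. The testis pair held 4 CCAAT boxes, both TATA boxes and the octamer. Its ATAC fold was the lowest of the 11 pairs with a peak. That peak lay outside the printed spacer, at chr13:23934649-23934901 over the Hist1h2aa gene body, so its fold does not describe the spacer.

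Upstream regions of 5 genes without such a partner are shown for contrast, 150 bases before the RefSeq start on the coding strand.
Hist1h1c (chr13:23738657-23738806, + strand): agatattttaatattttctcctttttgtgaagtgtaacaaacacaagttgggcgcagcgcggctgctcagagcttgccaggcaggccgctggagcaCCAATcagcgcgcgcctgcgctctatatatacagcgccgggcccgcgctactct
Hist1h1t (chr13:23695661-23695810, + strand): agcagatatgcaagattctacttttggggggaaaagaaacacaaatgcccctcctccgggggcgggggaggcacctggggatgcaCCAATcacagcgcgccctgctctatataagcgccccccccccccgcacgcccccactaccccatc
Hist1h3e (chr13:23562386-23562535, - strand): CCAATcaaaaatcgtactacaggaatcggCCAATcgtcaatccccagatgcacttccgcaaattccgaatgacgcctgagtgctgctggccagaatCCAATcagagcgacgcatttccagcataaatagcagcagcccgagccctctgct
Hist1h4j (chr13:21734884-21735033, + strand): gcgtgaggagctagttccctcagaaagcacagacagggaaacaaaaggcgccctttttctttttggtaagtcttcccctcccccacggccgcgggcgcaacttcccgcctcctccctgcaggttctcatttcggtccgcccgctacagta
Hist4h4 (chr6:136804432-136804581, - strand): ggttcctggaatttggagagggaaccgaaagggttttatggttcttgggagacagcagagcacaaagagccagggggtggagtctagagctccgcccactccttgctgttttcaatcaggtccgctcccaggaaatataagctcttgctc

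Over the 250 bases before the RefSeq start (mm10), which were read for 62 members and for 16715 genes in all, CCAAT on either strand was found at 51 members (82.3%), against 36.4% of all genes. At least 2 copies were present at 43 members (69.4%), against 12% of genes. The boxes followed the histone class: all 6 H1, all 18 H2A and all 16 H2B promoters held one, as did 8 of 10 H3 promoters, but only 3 of 12 H4 promoters did. TATAAA on the coding strand was found at 24 members (38.7%), against 8.26% of genes. The octamer ATTTGCAT, on either strand, was found at 13 members (21%), against 1.57% of genes, and all 13 were H2A (7) or H2B (6) genes. The 5 members not read in this way were Hist2h2be, Hist2h4, Hist1h3f, Hist1h2bc and Hist1h3a. Base composition also set the family apart, with a median GC content of 44.8%, against 56% for all genes. A G4 pattern, meaning 4 runs of at least 3 G separated by 1 to 7 bases on either strand, was found at 5 members (8.06%), against 19.5% of genes. These matches describe letters in a window and say nothing about what binds there.

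Histone gene starts were accessible in MuSCs of both genotypes. An ATAC peak lay within 1 kb of the start in all 4 libraries for 61 of 67 members (91%), against 60.6% of all protein-coding genes. This held for all 10 Hist2 genes, both Hist3 genes, Hist4h4 and 48 of 54 Hist1 genes. It held for all 12 H3 and all 13 H4 genes, 16 of 18 H2A, 16 of 18 H2B and 4 of 6 H1 genes. The median fold over members with a peak was 50.6 in Control 1, 42.8 in Control 2, 53.2 in TRF2KO 1 and 46.1 in TRF2KO 2, and over all genes with a peak it was 45.8, 39.8, 48.3 and 44.3. Peak height at histone genes was thus close to that of an average accessible start, with summits at a median of 219, 237, 232 and 202 fragments over a background of 3.35 to 4.56 fragments.

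The clusters differed in height. At the Hist2 genes, spread over chr3:96219865-96269752, the Control libraries had median folds of 79.4 and 71.6, the TRF2KO libraries had 84.2 and 71.8, and no Hist2 gene lay below 39.4 in any library. Hist1 medians reached 43 and 36.5 in Control and 44.8 and 40.9 in TRF2KO, with members from 2.74 to 106. Within Hist1 the block at chr13:21716143-21833743, which holds 18 genes, was the lowest of the 3 blocks with more than 2 genes, with medians of 22.6, 22, 29 and 24.5. By histone class, H4 starts were lowest, with medians of 32.7, 28.4, 27.7 and 26.8, and the 4 to 5 H1 starts with a peak were at 72.3, 57.9, 56.5 and 72.3. Neighbouring genes share peaks, so these orders are descriptions and were given no test.

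**Figure D1:**
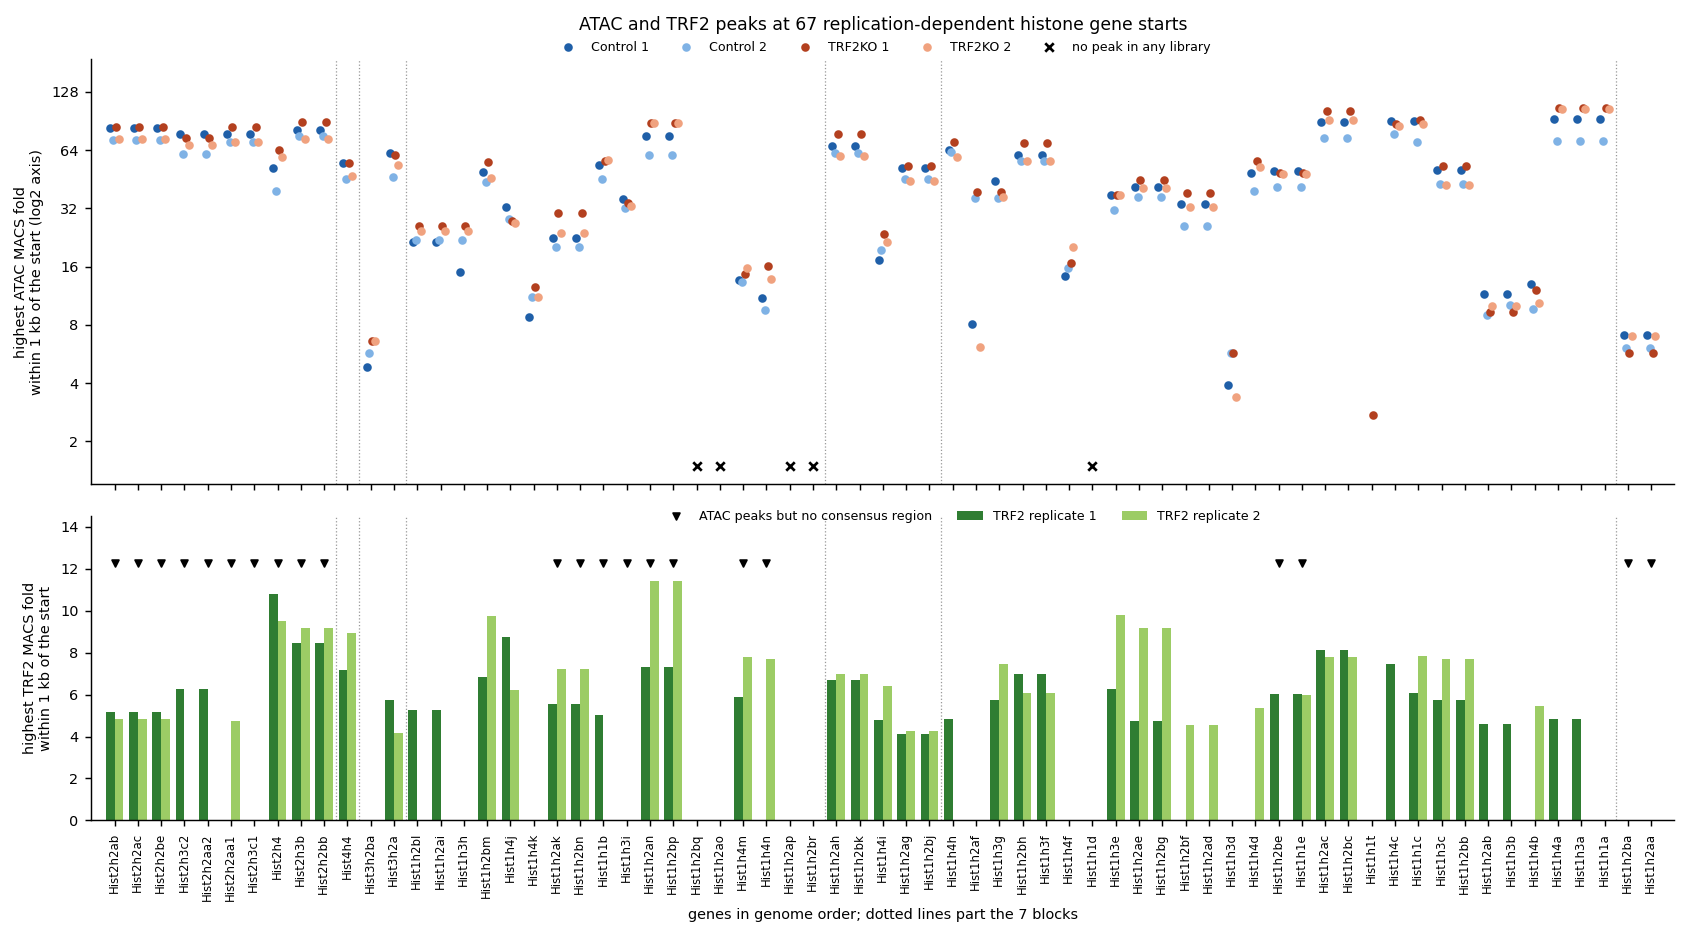
Highest MACS fold within 1 kb of the start for each of the 67 histone genes in genome order, for ATAC in the 4 libraries (top, log2 axis, 1 point a library) and for TRF2 CUT&Tag (bottom, 1 bar a library, no bar where there is no peak). Crosses mark the 5 genes without an ATAC peak in any library and are placed at the foot of the panel with no value; triangles mark the 22 genes with ATAC peaks but no consensus region, including all 10 Hist2 genes.

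The highest Control folds belonged to a few Hist1 promoters. Hist1h4c, an H4 gene, had folds of 90.7 and 77.4 in Control and 87.8 and 85.1 in TRF2KO. A single peak over the Hist1h4a and Hist1h3a starts reached 93 and 71.4 in Control and 106 and 104 in TRF2KO. The linker gene Hist1h1a took its value from this peak too, also in the H1 medians above. That peak ended before the Hist1h1a start, with summits at -2294 to -2290 bases from it. The pair Hist1h2ac/Hist1h2bc reached 89.1 and 73.6 in Control and 102 and 91.2 in TRF2KO. In all 3 cases Control 2 was the lowest of the 4 libraries.

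The lowest folds were read among the 61 members with a MACS peak in all 4 libraries. Hist1h3d, an H3 gene, had folds of 3.91 and 5.76 in Control and 5.72 and 3.4 in TRF2KO, from summits of only 14 to 31 fragments. Hist3h2ba, an H2B gene, was at 4.83 and 5.76 in Control and 6.63 and 6.58 in TRF2KO. The testis pair Hist1h2ba/Hist1h2aa was at 7.13 and 6.12 in Control and 5.72 and 7.04 in TRF2KO. Hist1h4k, an H4 gene, was at 8.75 and 11.2 in Control and 12.6 and 11.1 in TRF2KO. The Control and TRF2KO values overlapped at Hist1h3d, at the testis pair and at Hist1h4k but not at Hist3h2ba, where both TRF2KO libraries were the higher. The other callers gave other counts at these starts. GoPeaks called Hist1h3d and the testis pair in 2 libraries, and SEACR called Hist3h2ba, Hist1h4k and the testis pair in 0.

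The 2 genes outside the main clusters with high folds stood near the middle of the family. Hist3h2a, an H2A gene, was at 61.7 and 46.8 in Control and 60.8 and 53.6 in TRF2KO. Hist4h4 was at 54.8 and 45.5 in Control and 54.9 and 47 in TRF2KO. The genotypes overlapped at both.

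A peak in all 4 libraries was lacking at 6 members, all of them Hist1 genes. No library had a peak at Hist1h2bq, Hist1h2ao, Hist1h2ap, Hist1h2br and Hist1h1d (5 of 67, 7.46%, against 33.4% of all genes). Hist1h1t, the spermatocyte H1, had a peak in TRF2KO 1 only, with a fold of 2.74 and a summit of 11 fragments lying 554 bases past the start. None of the 67 had a peak in both Control and neither TRF2KO library (0.387% of all genes did), and none had one in both TRF2KO and neither Control library (0.228%).

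The first 4 of these genes form inverted copies, whose spacers are printed above: Hist1h2bq/Hist1h2ao matches Hist1h2ap/Hist1h2br read on the opposite strand. To measure how far their sequence recurs, each 50-base word within 1 kb of a start was looked up on both strands of the genome. All 1952 words around each of the 4 starts occurred more than once, with Hist1h2bq and Hist1h2br sharing all 1952 and Hist1h2ao and Hist1h2ap sharing 1947. Over the 67 members the median was 20% repeated words, against 0% for all protein-coding genes. More than 50% of words were repeated at 10 members (14.9%), against 5.45% of all genes, 0.662% of genes with an ATAC peak in all 4 libraries and 14.7% of genes with no ATAC peak. The nearest ATAC peaks to the 4 copies lay 1190 to 1469 bases away, at the H4 genes Hist1h4m and Hist1h4n.

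Other members with many repeated words had peaks. Hist1h4m and Hist1h4n, with 93% and 92% repeated words, had peaks in every library, at folds of 13.6 and 13.3 in Control and 14.6 and 15.7 in TRF2KO for Hist1h4m, and 11, 9.54, 16.2 and 13.8 for Hist1h4n. Hist2h3c1 and Hist2h3c2, with 78.5% and 77.6% repeated words, had folds of 77.6, 70.5, 83.9 and 70.8 and of 77.8, 61, 74.1 and 68.3. Reads at such near-identical copies cannot be placed with certainty, so these values are uncertain. The methods state that reads without a unique alignment were filtered out, under a heading that names both assays but in a passage that opens with the CUT&Tag samples. The part of this filter in the missing peaks was not tested.

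**Figure D2:**
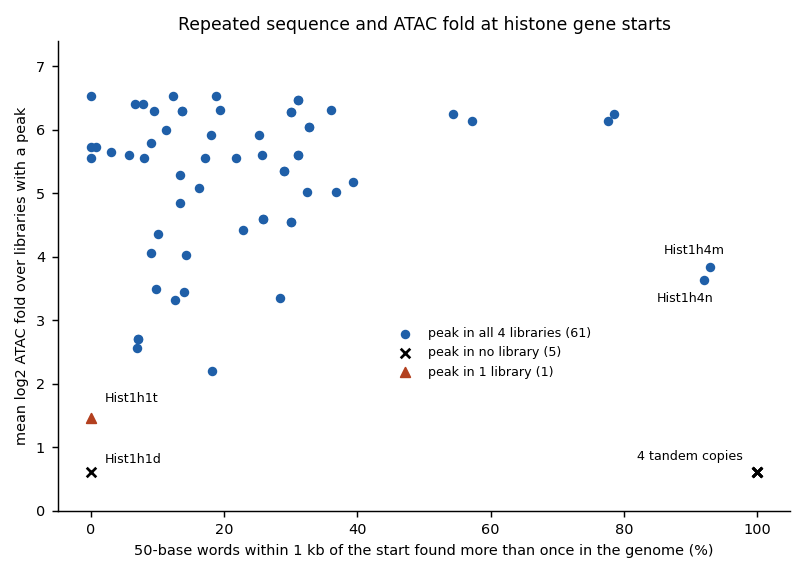
Share of 50-base words within 1 kb of each histone gene start that occur more than once in the genome (x axis, percent) against the mean log2 ATAC fold over the libraries with a peak (y axis), 1 point a gene. The 4 inverted copies (overlapping crosses, labelled tandem copies) stand at 100% with no peak. Hist1h4m and Hist1h4n at 93% and 92% have peaks in all 4 libraries, and Hist1h1d and Hist1h1t have 0% repeated words. Crosses carry no fold and are placed near the foot.

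For Hist1h1d and Hist1h1t no word was repeated. The annotated start of Hist1h1d lies 1828 bases before its first coding base. Around that coding base instead, an ATAC peak was present in all 4 libraries, at folds of 25.8 and 16.9 in Control and 21 and 15 in TRF2KO, with TRF2 folds of 6.47 and 6.72. With this window, added after the data were seen, 62 of 67 members had a peak in all 4 libraries, against 48.3% of all genes. Hist1h2be, whose annotated start lies 35168 bases from its coding sequence and next to Hist1h1e, had folds of 39.6 and 32.8 in Control and 43 and 34.7 in TRF2KO at the coding base. The 4 inverted copies still had no peak, and Hist1h1t still had 1.

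The value within 1 kb did not always come from a peak centred on the gene. At 13 members the summit of the highest peak lay more than 1 kb from the start in at least 1 library, and at 3 of the 67 (Hist1h3h, Hist1h2af and Hist1h3b) the summit moved by more than 500 bases between libraries. Hist1h2af, an H2A gene, shows what this does: its folds were 8.05 in Control 1, 36.4 in Control 2, 38.9 in TRF2KO 1 and 6.13 in TRF2KO 2. In Control 2 and TRF2KO 1 the value was that of the neighbouring peak at Hist1h3g, with summits 1410 and 1398 bases away.

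TRF2 peaks were found at 32 of the 67 starts in both TRF2 libraries (47.8%), against 22.5% of all protein-coding genes. Either library had a peak at 50 members, against 36.7% of genes, and 12 members had one in replicate 1 only (6.45% of all genes), 6 in replicate 2 only (7.78%) and 17 in neither (63.3%). No member had an IgG peak; 21 of all genes did (0.0957%), out of 656 IgG peaks in all. Of the 32, 30 had peaks that overlapped between the libraries, and the 32 starts rested on 21 distinct peaks in each. By cluster the count was 24 of 54 for Hist1, 6 of 10 for Hist2, 1 of 2 for Hist3 and 1 of 1 for Hist4. By class it was 2 of 6 for H1, 9 of 18 for H2A, 11 of 18 for H2B, 5 of 12 for H3 and 5 of 13 for H4. The shares in the clusters and classes rest on few shared peaks and were not compared by a test.

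TRF2 peaks here were small. Their median fold at members was 5.82 in replicate 1 and 7.23 in replicate 2, against 6.12 and 6.37 over all genes with a peak. Summits at members held 7 to 19 fragments in replicate 1 and 6 to 23 in replicate 2. The H4 gene Hist2h4 had folds of 10.8 and 9.5, and the Hist2h3b/Hist2h2bb promoter had 8.46 and 9.19. The pair Hist1h2bc/Hist1h2ac had folds of 8.12 and 7.81, and Hist1h2an/Hist1h2bp had 7.33 and 11.4. Of the genes outside Hist1 and Hist2, Hist4h4 had 7.17 and 8.93, Hist3h2a had 5.74 and 4.15 and Hist3h2ba had no TRF2 peak. At these depths the replicates do not separate neighbours in this order. Hist1h4c, among the highest in ATAC, had a TRF2 peak in replicate 1 only, at 7.45.

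Across the genome a TRF2 peak was more frequent at starts with higher ATAC folds, so the members were set beside starts of like accessibility. Among starts with an ATAC peak in all 4 libraries, 32 of 61 members had TRF2 peaks in both libraries, against 37.1% of all such starts. Those starts were divided into quintiles by their mean Control ATAC rank, the percentile of the fold among all peaks of a library. In the lowest quintile, 1 of 12 members had TRF2 peaks (8.33%, against 4.67% of genes). In the next, 5 of 11 did (45.5% against 16.1%), in the middle one 12 of 15 (80% against 32.7%), and in the one above it 14 of 23 (60.9% against 52.1%). No member stood in the highest quintile, where 79.9% of genes had TRF2 peaks. The share at members was above that of all genes in each of the 4 quintiles that held members, but shared peaks make these counts smaller in effect than they look and no test was run. The ATAC and TRF2 libraries also differ in muscle and in injury.

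**Figure D3:**
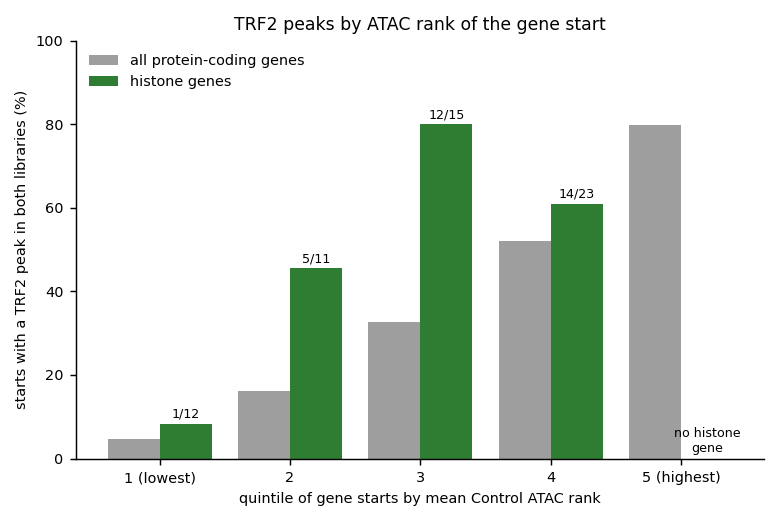
Share of gene starts with a TRF2 peak in both CUT&Tag libraries (y axis, percent) by quintile of mean Control ATAC rank (x axis), for all protein-coding genes (grey) and histone genes (green, with counts above the bars). Histone genes reach 80% in the middle quintile, where all genes are at 32.7%, and none falls in the highest quintile.

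The DNA under the TRF2 peaks of histone genes had a lower GC content and fewer G4 patterns than that under all TRF2 peaks at gene starts, whereas TTAGGG was not rarer. In the 300 bases around each summit the median GC content was 59.7% and 58% for the 28 and 26 distinct peaks at members (replicates 1 and 2), against 65.7% in both replicates for all peaks at gene starts. The G4 pattern was found in 1 of 28 (3.57%) and 1 of 26 (3.85%), against 30.5% and 29.8%. The telomeric repeat TTAGGG, a single copy on either strand, was found in 4 (14.3%) and 3 (11.5%), against 9.2% and 9.16%, and no member's peak held 2 copies in tandem. CCAAT was found in 11 (39.3%) and 15 (57.7%), against 37.6% and 39.2%. In the upstream window none of the 28 members with both TRF2 peaks and a promoter read had a G4 pattern, against 25.1% of all genes with both, and 24 of the 28 had CCAAT (85.7%), as did 14 of 17 members with no TRF2 peak (82.4%) and 43.4% of all genes with both. GC content moved with these shares, and its part in them was not tested.

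The genotypes were then compared by ATAC fold, to ask whether loss of TRF2 was accompanied by a change in accessibility at these genes. Terf2 itself, the targeted gene, had start folds of 54.3 and 48.4 in Control and 21.5 and 18.6 in TRF2KO, a log2 difference of -1.46 ± 0.08 (SE, limma adjusted p = 0.0133). The difference stayed between -1.49 and -1.36 in every alternative, but the adjusted p rose to 0.0578 with the replicate number as a block, 0.0685 without Control 1 and 0.0854 without Control 2. In bulk libraries such as these, deletion of the floxed Terf2 DNA, fewer cells with an open site and a lower signal in each cell cannot be told apart. At the histone genes no start passed the limma test: 0 of 61 were called, against 0.0376% of 13286 starts higher and 0.173% lower in TRF2KO (5 and 23 starts). At an unadjusted p under 0.05 there were 8 of 61 members and 1653 of 13286 starts, and the lowest adjusted p of a member was 0.142. The median log2 difference of members, TRF2KO minus Control with each library centred on its median, was -0.01, against 0.01 over all starts. Of the 61, 30 were higher in TRF2KO and 31 lower. Their differences spanned -0.26 to 0.45, and none passed 0.5 in either direction, against 418 of all starts (3.15%). Under 8 of the 11 alternatives to this fit 1 or 2 members passed 0.5. They were Hist1h4n, Hist1h1t, Hist1h3b, Hist1h2af, Hist1h3d and Hist1h3h. The share of all starts past 0.5 in those alternatives is not given here, so these counts have no background to be read against. With 2 libraries a genotype, no permutation of the labels can give p below 0.333, and small differences cannot be told from 0.

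**Figure D4:**
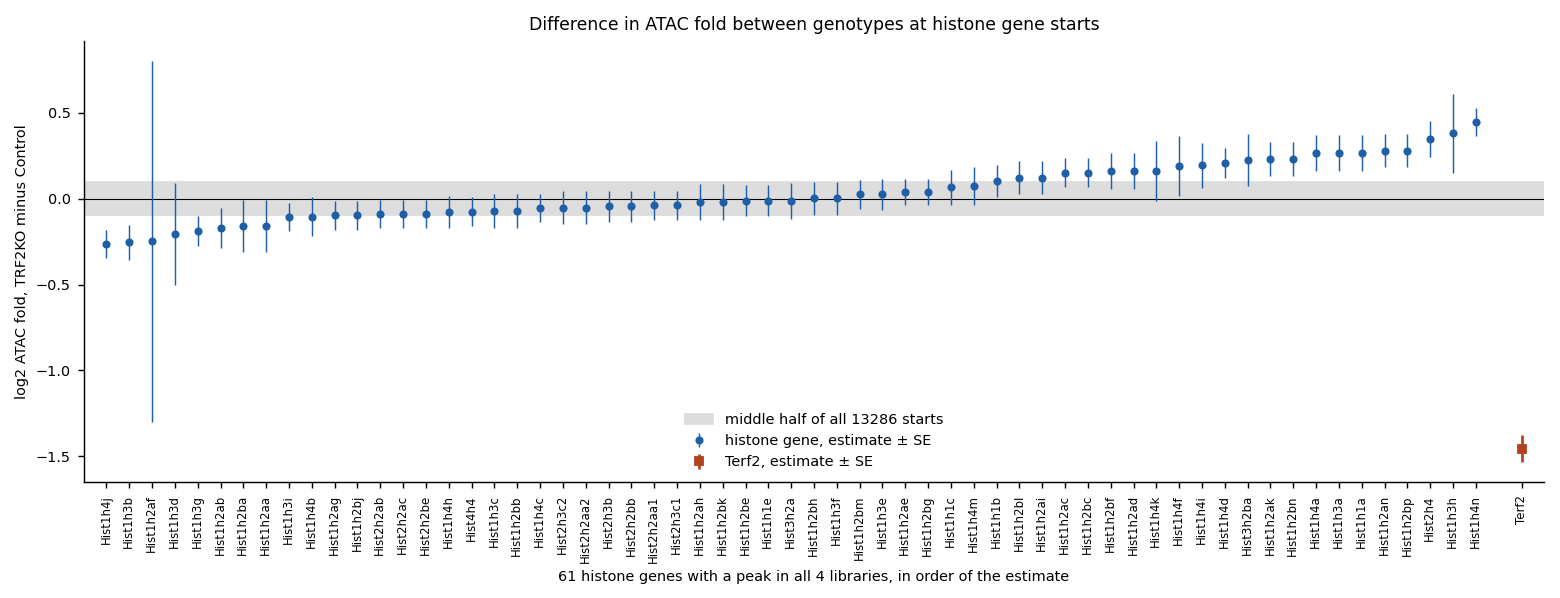
Log2 difference in ATAC fold between genotypes (y axis, TRF2KO minus Control, points with bars of ± 1 SE from limma) for the 61 histone genes with a peak in all 4 libraries and for Terf2 (red square). Members lie between -0.26 and 0.45, Terf2 at -1.46, and the wide bar is Hist1h2af, whose value comes from different peaks in different libraries.

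Individual members illustrate the spread. Hist1h4n, one of the H4 genes beside the inverted copies, had the largest positive difference, 0.45 ± 0.08 (SE, limma adjusted p = 0.142), and both TRF2KO folds lay above both Control folds. Hist1h4m, its near copy, differed by 0.07 ± 0.11. Hist1h3h followed with 0.38 ± 0.23 (limma adjusted p = 0.556), at folds of 15 and 22 in Control and 26.1 and 24.5 in TRF2KO. In Control 1 that value was the gene's own peak, with the summit at -8 bases from the start, and in the other 3 libraries it was a neighbouring peak with summits at -1292, -1296 and -1292. The difference was 0.02 without Control 1, 0.74 without Control 2 and 0.12 with a 3 kb window. Hist2h4 was at 51.8 and 39.4 in Control and 64 and 59.2 in TRF2KO, a difference of 0.35 ± 0.10 (limma adjusted p = 0.286). Both TRF2KO folds of Hist2h4 were the higher. In the other direction, Hist1h4j was at 32.7 and 28.4 in Control and 27.7 and 26.8 in TRF2KO, a difference of -0.26 ± 0.08 (limma adjusted p = 0.300). Hist1h3b was at 11.5 and 10.1 in Control and 9.38 and 9.99 in TRF2KO, a difference of -0.25 ± 0.10 (limma adjusted p = 0.404). Its Control 2 value came from a summit 77 bases past the start and the other 3 from a peak over 1 kb before it; with a 500 bp window the difference was -0.62. Both Control folds were the higher at Hist1h4j and, with the 1 kb window, at Hist1h3b. For Hist1h2af the difference was -0.25 ± 1.05 (limma adjusted p = 0.944), with values that crossed the genotypes; without Control 2 it was 0.92 and without TRF2KO 2 it was 1.02.

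The genotype differences were also read by TRF2 occupancy. The 32 with TRF2 peaks in both libraries had a median log2 difference of -0.0040, with 16 higher and 16 lower in TRF2KO. The 11 with ATAC peaks and no TRF2 peak had a median of -0.04, with 5 higher and 6 lower, and the 18 with a TRF2 peak in 1 library had 0.05. Over all genes the median was 0.04 with TRF2 peaks in both libraries and -0.03 with none. By cluster, 9 of the 10 Hist2 starts were lower in TRF2KO at a median of -0.05, against 46.5% of all starts, but these rested on 5 distinct peaks, of which 4 were lower. Of the 48 Hist1 starts, 20 were lower, or 15 of 34 distinct values, at a median difference of 0.03. Adjusting for library medians matters for this sign: without centring, all starts shifted up by a median of 0.11 and 51 of 61 members were higher in TRF2KO, beside 75.6% of all starts. The median percentile rank of members among all peaks of a library came to 89.1 and 89.9 in Control and to 89.5 and 88.4 in TRF2KO, so the genotypes overlapped; the lists differ in length, from 84102 to 100521 peaks, which alone can move such a rank.

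The deposited consensus regions, which the authors combined from 3 peak callers, left out part of the family. A Control consensus region lay within 1 kb of 39 of 67 members (58.2%, against 62.5% of all genes) and a TRF2KO region within 1 kb of 41 (61.2%, against 61.4%). Among members with a MACS peak in all 4 libraries, 22 of 61 (36.1%) had no consensus region of either genotype, against 3.43% of all such starts. These 22 fell in 4 stretches without consensus regions. The longest, chr3:96184451-96413599 (229149 bases), held all 10 Hist2 genes and 9 ATAC regions found by MACS in all 4 libraries. The second, chr13:21750951-21918960 (168010 bases), held 12 Hist1 genes, of which 8 had peaks. The others were chr13:23588901-23680699, with Hist1h2be and Hist1h1e, and chr13:23885851-23940221, with the testis pair. ATAC folds in these stretches covered most of the family's range, from the testis pair through Hist1h4n and Hist1h4m to Hist2h3b/Hist2h2bb, at 81 and 75.4 in Control and 89.9 and 73.3 in TRF2KO. The methods state that ENCODE blacklist regions were removed before the consensus was built. That list was not used here, and its part in these gaps was not tested.

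Genes that control the histone genes were compared as a list. Of 17 factors for histone transcription and mRNA processing, 16 had an ATAC peak in all 4 libraries (60.6% of all genes did). TRF2 peaks in both libraries were found at 10, against 22.5% of all genes. Npat, Casp8ap2 and Slbp stood in the highest quintile by Control ATAC rank, where 79.9% of genes had TRF2 peaks. None of the factors passed the limma test, and their median log2 difference was 0.06. Npat, the coactivator that cyclin E-CDK2 phosphorylates at histone locus bodies, had ATAC folds of 171 and 136 in Control and 168 and 166 in TRF2KO, with TRF2 folds of 9.48 and 8.02. Casp8ap2 (FLASH), needed for histone pre-mRNA processing, had 181 and 152 in Control and 179 and 177 in TRF2KO, with TRF2 folds of 9.15 and 9.08. Slbp, which encodes the stem-loop binding protein, had 122 and 104 in Control and 129 and 126 in TRF2KO, with TRF2 folds of 4.37 and 7.64. All 3 exceeded every replication-dependent histone gene in ATAC fold in each library. The genotypes overlapped at Npat and Casp8ap2, and at Slbp both TRF2KO folds were the higher before centring (log2 difference 0.08 ± 0.08 after it, limma adjusted p = 0.736). Zfp473 had no peak at its annotated start.

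Of 11 replication-independent histone genes, 10 had an ATAC peak in all 4 libraries and 4 had TRF2 peaks in both. The shares over all genes were 60.6% and 22.5%. None of the 11 passed the limma test (median log2 difference 0.07). H3f3a, an H3.3 gene, had ATAC folds of 85.8 and 75 in Control and 97.9 and 85.6 in TRF2KO, with TRF2 folds of 9.38 and 5.57. H2afz, the H2A.Z gene, had 146 and 126 in Control and 163 and 141 in TRF2KO, with TRF2 folds of 5.98 and 8.55. At both genes the genotypes overlapped. H3f3b, the other H3.3 gene, had no peak at its annotated start.

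The identity of the sorted cells was checked on marker gene starts. The 7 MuSC markers, Pax7 included, all had an ATAC peak in the 4 libraries. So did 1 of 5 immune, 4 of 5 endothelial, 2 of 4 fibro-adipogenic and 3 of 5 differentiated-muscle markers, against 60.6% of all genes. Within 1 kb of the annotated start no marker had TRF2 peaks in both libraries, against 22.5% of all genes. Sdc4 and Cdh15 had a peak in replicate 2, at folds of 5.87 and 5.59. The paper reports TRF2 at a Pax7 enhancer past the end of the gene, outside this window, and at a regulatory region of Sdc4. Of the immune markers 4 had a peak in no library. The other, Cd68, was at 8.05 and 7.38 in Control and 4.57 and 4.54 in TRF2KO (log2 difference -0.86 ± 0.08, limma adjusted p = 0.0489). Among the MuSC markers 6 of 7 were lower in TRF2KO, against 46.5% of all starts. So were 2 of 2 fitted fibro-adipogenic, 2 of 3 differentiated-muscle and 1 of 4 endothelial markers. The largest difference of a MuSC marker was at Itga7, which encodes the α7-integrin used in the sort. Its folds were 73.4 and 68 in Control and 35 and 56.1 in TRF2KO (log2 difference -0.77 ± 0.26, limma adjusted p = 0.335). At Cd68 and Itga7 both Control folds were the higher, and at the other MuSC markers the genotypes overlapped. The part of these folds in the comparisons above was not tested. The libraries held 84102 to 100521 ATAC peaks and 12290 and 15479 TRF2 peaks.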

How the data were processed

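The members, gene lists and comparisons were chosen with earlier results of these data known. The authors aligned reads to mm10 with Bowtie2 (2.5.4 for ATAC, 2.4.4 for CUT&Tag in the submitters' processing notes), removed duplicates and called peaks per library with MACS3 (3.0.2 and 3.0.0), SEACR 1.3 and GoPeaks; consensus regions per genotype came from DiffBind 3.10.1. The deposited MACS lists hold each peak's fold (a ratio to background), its -log10 p-value and q-value, and a score. The deposited SEACR lists hold signal values, of which only the positions were used.

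From these lists, the highest fold within 1 kb of each GENCODE M21 start was taken and ranked within its library. Starts with a peak in all 4 ATAC libraries were compared on the log2 fold, each library centred on its median, with limma 3.58.1 in R 4.3.3 (two-sided, Benjamini-Hochberg over 13286 starts, threshold 0.05); the script was tested on simulated data. The fold is not a count, so no count model was used. Depth limits ATAC folds through backgrounds of 3.35 to 4.56 fragments. It limits TRF2 folds through backgrounds as low as 0.312 and 0.285 fragments, and most TRF2 summits held few fragments. Blocks join members less than 100 kb apart. Promoter sequences are from RefSeq (mm10); others were read from the mm10 genome.

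Named with values were the 6 members of highest lower TRF2 fold (with ties), those lacking an ATAC peak in any library, the 5 of highest and of lowest Control fold, the 3 largest differences in each direction, all members outside Hist1 and Hist2, the germ-cell members, Terf2 and 6 listed genes; members named for their sequence, repetition or summit position were chosen after their values were seen. Alternatives changed the window, caller, q-value, scaling, features and libraries.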

Additional observations from a re-analysis of the deposited data

How the results depend on the processing

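The count of members with an ATAC peak in all 4 libraries was 61. It ranged from 45 with SEACR (47.9% of all genes) to 67 within 3 kb (64.4%). The count with TRF2 peaks in both libraries (32) was 17 when the peak had to cover the start itself (13.7% of all genes). It was 50 with a peak in either library (36.7%). In the other alternatives it lay between 22, at a -log10 q of at least 5 (12.5%), and 44, in replicate 1 alone (29%). With all 4 libraries, no member had a peak in every library of 1 genotype and in none of the other. Leaving out single ATAC libraries gave 0 to 1, the 1 being Hist1h1t without TRF2KO 2 (1.65% of all genes). No member was called between genotypes under any of the 11 alternatives to the fit, while calls over all starts ranged from 0 higher and 4 lower with the replicate block to 63 higher and 116 lower without centring. Replicate numbers did not pair the libraries (correlation of deviations -0.0808); with the block 0 members were called, and 3 had an unadjusted p under 0.05. The Hist1h2af difference reversed to 0.92 without Control 2 and 1.02 without TRF2KO 2; leaving out each library gave -1.51 to 1.02. Terf2 kept its difference (-1.46 with the block, -1.45 without Control 1, -1.46 without Control 2), but in these 3 its limma adjusted p was above 0.05. Hist1h3b moved from -0.25 to -0.62 within 500 bp, and Hist1h3h from 0.38 to 0.02 without Control 1 and 0.74 without Control 2. The rank difference (-0.574 points) ran from -1.12 to -0.0319 when single libraries were left out and from -0.85 to -0.307 in the others, and within starts alone it was -0.307, against -0.0301 for all starts. The window around the first coding base was added after the data were seen. It gave 62 members for ATAC (48.3% of all genes) and 32 for TRF2 (16.3%). The causes were not tested, except that at Hist1h2af, Hist1h3h and Hist1h3b the libraries read different peaks. TRF2 summits of 6 to 23 fragments limit how firmly absence of a TRF2 peak can be read.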

Other observations

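Histone pseudogenes and genes outside the protein-coding set were looked at by their starts. Hist3h2bb-ps, annotated beside Hist3h2a, took its values from the same peaks, with ATAC folds of 61.7 and 46.8 in Control and 60.8 and 53.6 in TRF2KO and TRF2 folds of 5.74 and 4.15. Hist1h2aj, beside Hist1h2bm, had ATAC folds of 49.2 and 43.7 in Control and 55.6 and 46.1 in TRF2KO and TRF2 folds of 6.84 and 9.73. Hist1h2al had ATAC folds of 9.21 and 7.38 in Control and 10.1 and 6.81 in TRF2KO and no TRF2 peak. At all 3 starts the genotypes overlapped.

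Other callers differed at the members without a MACS peak in all 4 ATAC libraries. SEACR reported a region in 1 ATAC library at Hist1h2ap, Hist1h1d and Hist1h1t, and GoPeaks reported none at any of the 6. A TRF2KO consensus region, but no Control one, lay within 1 kb of the Hist1h1d and Hist1h1t starts. The single copy of TTAGGG in the 250 bases before the RefSeq start was found at 3 members (4.84%, against 9.36% of all genes), all of them H1 genes.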
